A study of Homo sapiens with 6 samples.

Results

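The genes described here encode 6 insulin-like growth factor binding proteins (IGFBP1, IGFBP2, IGFBP3, IGFBP4, IGFBP6 and IGFBP7), the IGF and insulin receptors (IGF1R and INSR) and 2 insulin receptor substrates (IRS1 and IRS2). They were chosen by name, with earlier results of these data known. All 10 were found by symbol among the 60240 genes of the table. RNA was measured in HepG2, an established human hepatocellular carcinoma line. One set of 3 cultures received 100 ng/ml recombinant GDF11 for 24 h, and the other set of 3 was grown without it as controls. All cultures grew in high-glucose medium with fetal bovine serum, itself a source of growth factors, and the labels name no vehicle for the controls. GDF11, growth differentiation factor 11, is a secreted ligand related to TGF-beta and myostatin. Being a single cancer line, HepG2 stands for neither normal hepatocytes nor other liver cells.

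IGF1 and IGF2 are peptide hormones close in structure to insulin, and the liver is the main source of circulating IGF1. IGF binding proteins hold these peptides in blood and tissue, prolong their life and limit or deliver them to the receptors until proteases such as pappalysin release them. The IGF1 and insulin receptors are tyrosine kinases that phosphorylate the IRS adaptors, which recruit PI3 kinase and so activate AKT. In hepatocytes AKT keeps FOXO factors out of the nucleus, and IGFBP1 and IRS2 are well known genes that FOXO activates and insulin represses.

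The start regions of 4 of these genes are shown because IGFBP2, IGFBP4 and IRS1 RNA rose with GDF11 and because IRS2 carries a sequence linked to insulin control. They are the 250 bases before the RefSeq start on GRCh38.p14, read along the gene's own strand: chr2:216632578-216632827, plus strand, for IGFBP2 (the most upstream of its 3 listed starts), chr17:40443200-40443449, plus strand, for IGFBP4, chr2:226799821-226800070, minus strand, for IRS1, and chr13:109786584-109786833, minus strand, for IRS2. Capitals mark matches to the motifs named after them.
IGFBP2: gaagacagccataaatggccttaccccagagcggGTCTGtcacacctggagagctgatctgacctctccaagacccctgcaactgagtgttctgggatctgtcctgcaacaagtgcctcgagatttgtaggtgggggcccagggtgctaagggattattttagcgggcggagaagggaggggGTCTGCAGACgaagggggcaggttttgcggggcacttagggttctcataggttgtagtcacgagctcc
IGFBP4: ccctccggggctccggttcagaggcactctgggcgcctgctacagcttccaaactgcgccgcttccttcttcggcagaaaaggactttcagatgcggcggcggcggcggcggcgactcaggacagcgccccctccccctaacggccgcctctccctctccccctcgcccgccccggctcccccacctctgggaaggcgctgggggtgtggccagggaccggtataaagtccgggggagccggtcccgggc
IRS1: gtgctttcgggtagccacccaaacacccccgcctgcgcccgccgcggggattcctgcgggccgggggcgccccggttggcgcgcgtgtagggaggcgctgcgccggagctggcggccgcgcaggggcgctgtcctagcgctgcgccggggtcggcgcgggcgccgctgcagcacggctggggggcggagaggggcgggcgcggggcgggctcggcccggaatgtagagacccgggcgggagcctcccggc
IRS2: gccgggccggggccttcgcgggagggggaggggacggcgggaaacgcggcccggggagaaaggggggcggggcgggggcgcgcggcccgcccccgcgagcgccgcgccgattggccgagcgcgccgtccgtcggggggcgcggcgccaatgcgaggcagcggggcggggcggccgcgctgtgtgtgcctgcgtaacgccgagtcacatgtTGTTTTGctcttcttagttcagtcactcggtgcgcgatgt
Windows were listed for 8 of the 10 genes, 10 windows in all; IGFBP1 and IGFBP7 were without one. They were searched on both strands for CAGAC (the core of the SMAD-binding CAGA box), GTCTAGAC (a SMAD palindrome), TGANTCA (AP-1), GTAAACA (FOXO) and CAAAACA (the core of the insulin response element). The IGFBP2 window held CAGAC 3 times, and 2 of these matches stand side by side on opposite strands. Its other starts had 0 and 1 such matches, and INSR, which was not called, had 1, at 207 to 211 bases before its start. The IGFBP4 and IRS1 windows held none of the motifs. In IRS2, CAAAACA lay on the opposite strand, 34 to 40 bases before the start. GTAAACA was found in the IGFBP6 window, 180 to 186 bases before the start. Of 35116 windows of this length for human genes, 38.0% held CAGAC, 0.182% GTCTAGAC, 6.57% TGANTCA, 2.98% GTAAACA and 4.30% CAAAACA. No matches overlapped in these genes, and a match describes letters and not binding.

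Values below are the authors' variance-stabilised expression values on a log2 scale with a floor of 5.52 for a gene without reads. Normalised reads are these values turned back to a linear scale of reads, and their totals still differed between libraries. The totals were 44621162 to 48508290 in GDF11 libraries, against 46103008 to 59440376 in controls. Neither is divided by gene length, so levels are compared between libraries and not between genes. The libraries held an estimated 47900000 to 53400000 reads each. RNA integrity numbers stood at 9.6, 9.5 and 9.4 in GDF11 replicates 1, 2 and 3, against 9.8, 9.9 and 9.6 in control replicates 1, 2 and 3. On the first principal component the GDF11 libraries lay at 35.2 to 45.4, and control replicate 3 (-20.0) stood apart from control replicates 1 (-46.5) and 2 (-52.2). All 10 hepatocyte markers were present, among them ALB and HNF4A. Of these, 6 fell and 0 rose with GDF11, while 10.8% of all tested genes were called lower and 11.7% higher. The summed level of the 10 markers was 1252700 to 1389400 normalised reads in GDF11 libraries, against 1594520 to 2111960 in controls. Of 11 markers of leukocytes, endothelium and fibroblasts, PTPRC and CD3E were at the lowest value in all libraries, 1 rose (PDGFRB) and 2 fell (LYZ and VWF). Their summed level was 34760 to 36091 normalised reads in GDF11 libraries, against 69402 to 80646 in controls, and most of it was LYZ. Without LYZ the sum was 4424 to 5571 normalised reads in GDF11 libraries, against 3779 to 4696 in controls. The part of any of these values in the results was not tested. In such bulk RNA, fewer cells of a kind and less RNA per cell cannot be told apart.

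GDF11-treated cells held more RNA of 3 binding proteins, IGFBP7, IGFBP4 and IGFBP2, and of the adaptor IRS1. None of the 10 genes fell by the test. Of the 9 genes that could be tested, 4 rose, 0 fell and 5 were not called with limma at a Benjamini-Hochberg adjusted p under 0.05. The share called among all 18723 tested genes was 22.4% in either direction and 11.7% higher. Because the 10 genes were chosen with earlier results of these data known, setting them beside these shares is a description and not a test. The median difference over the 9 genes was 0.55, against 0.0056 over all tested genes. That median is the value of IGF1R, which was not called, and it was 0.20 without control replicate 1 and 0.33 without GDF11 replicate 1. The GDF11 and control values did not overlap for the same 4 genes, while 40.5% of all tested genes had such values in either direction, 20.9% higher and 19.6% lower. IGFBP3, the remaining gene, was too low to test. The number higher was 2 without GDF11 replicate 1, without GDF11 replicate 2 or without control replicate 1, and without control replicate 1 a single gene, IGFBP1, was called lower.

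**Figure D1:**
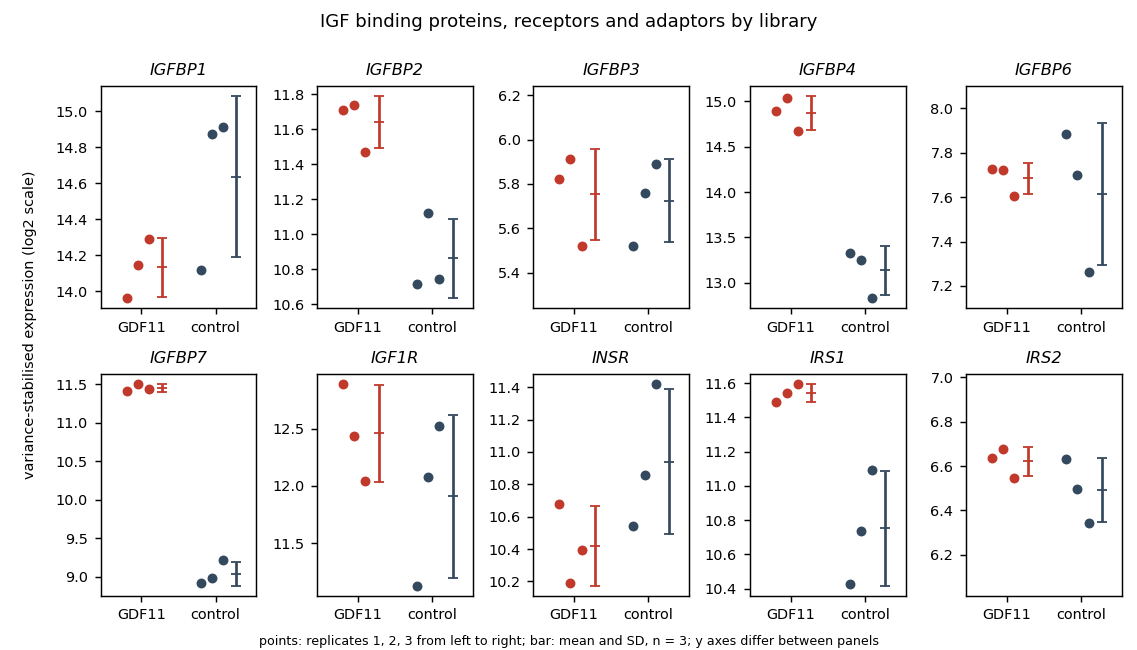
Variance-stabilised expression (log2 scale, y axis) of the 10 genes in each library, GDF11 left and control right in each panel, with the mean and SD of 3 libraries beside the points. IGFBP2, IGFBP4, IGFBP7 and IRS1 have all 3 GDF11 libraries above all 3 controls, and the other panels overlap.

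IGFBP7 showed the largest difference of the 9. Its product binds IGFs weakly compared with the other binding proteins and is a secreted matrix-associated protein also known as IGFBP-related protein. The gene (ENSG00000163453.11) lies on chromosome 4, 57030773 to 57110385 of GRCh38. It stood at 11.41, 11.51 and 11.44 in GDF11 replicates 1, 2 and 3, against 8.92, 8.98 and 9.21 in control replicates 1, 2 and 3. The replicates of each group lay close together and the groups were far apart. In normalised reads this was 2711 ± 99.3 with GDF11 and 440 ± 57.8 in controls (SD, n = 3 each), a ratio of 6.16. The difference was 2.41 ± 0.15 on the log2 scale (SE, limma adjusted p = 1.58e-05), with a 95% interval of 2.08 to 2.74. It remained between 2.36 and 2.50 when any 1 library was left out.

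IGFBP4 followed. Its product inhibits IGF action until pappalysin-1, the product of PAPPA, cleaves it. The gene (ENSG00000141753.7) lies on chromosome 17, 40443450 to 40457725. Its values were 14.90, 15.04 and 14.67 in GDF11 replicates 1, 2 and 3, against 13.33, 13.26 and 12.83 in control replicates 1, 2 and 3. The lowest GDF11 library was thus above the highest control, and the third replicate was the lowest of its group on both sides. Normalised reads averaged 30049 ± 3812 with GDF11 and 9027 ± 1619 in controls (SD, n = 3 each), a ratio of 3.33. The difference was 1.73 ± 0.19 (SE, limma adjusted p = 0.000342).

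IGFBP2, a binding protein that liver secretes in quantity, rose less. The gene (ENSG00000115457.10) lies on chromosome 2, 216632828 to 216664436. It stood at 11.71, 11.74 and 11.47 in GDF11 replicates 1, 2 and 3, against 10.72, 11.12 and 10.75 in control replicates 1, 2 and 3. The groups did not overlap, with control replicate 2 the nearest to the GDF11 values. On normalised reads the ratio was 1.74, from means of 3111 ± 319 with GDF11 and 1786 ± 308 in controls (SD, n = 3 each). The difference of 0.78 ± 0.17 passed the test (SE, limma adjusted p = 0.0112). IGFBP2 was no longer called when control replicate 1 (0.71), GDF11 replicate 1 (0.74) or GDF11 replicate 2 (0.73) was left out, with adjusted p from 0.0025 to 0.0565 over all alternatives in limma.

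IGFBP1, the insulin-repressed binding protein of liver, was not called. The gene (ENSG00000146678.10) lies on chromosome 7, 45888488 to 45893660, next to IGFBP3. Its values were 13.96, 14.14 and 14.29 in GDF11 replicates 1, 2 and 3, against 14.12, 14.88 and 14.91 in control replicates 1, 2 and 3. Control replicate 1 lay among the GDF11 libraries, while the other 2 controls lay above all of them. The difference was -0.50 ± 0.23 (SE, limma adjusted p = 0.149), with a 95% interval of -1.03 to 0.02. Normalised reads averaged 17932 ± 2056 with GDF11 and 26125 ± 7317 in controls (SD, n = 3 each). Without control replicate 1 the difference was -0.76 and was called lower (limma adjusted p = 0.0343), and adjusted p ran from 0.0343 to 0.362 over the alternatives.

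IGFBP6, whose product prefers IGF2 over IGF1, was not called either. The gene (ENSG00000167779.9) lies on chromosome 12, 53097667 to 53102340. It had 129.9, 129.4 and 113.7 normalised reads in GDF11 replicates 1, 2 and 3, against 153.4, 126.2 and 75.4 in control replicates 1, 2 and 3. The controls spanned the GDF11 values on both sides. The difference was 0.07 ± 0.17 (SE, limma adjusted p = 0.805), with a 95% interval of -0.33 to 0.46. Its sign turned to -0.11 without control replicate 3 and to -0.046 with quantile normalization.

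IGFBP3, which carries most IGF in human serum, was close to absent in these libraries. The gene (ENSG00000146674.15) lies on chromosome 7, 45912245 to 45921272. It had 2.0, 3.4 and 0.0 normalised reads in GDF11 replicates 1, 2 and 3, against 0.0, 1.3 and 3.0 in control replicates 1, 2 and 3. A library of each group held none, so no change could be detected at this depth. IGFBP5, the family's other classical member, stood at the lowest value in all 6 libraries.

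The receptor genes were not called, and they varied more between replicates than the binding proteins that rose. IGF1R (ENSG00000140443.15, chromosome 15, 98648539 to 98964530) stood at 12.89, 12.44 and 12.04 in GDF11 replicates 1, 2 and 3, against 11.13, 12.08 and 12.52 in control replicates 1, 2 and 3. The low value of control replicate 1 made most of the gap, and the groups overlapped. The difference was 0.55 ± 0.35 (SE, limma adjusted p = 0.284), its 95% interval was -0.24 to 1.33, and it was 0.16 without control replicate 1. INSR (ENSG00000171105.14, chromosome 19, 7112265 to 7294414) stood at 10.68, 10.19 and 10.39 in GDF11 replicates 1, 2 and 3, against 10.54, 10.86 and 11.42 in control replicates 1, 2 and 3. Control replicate 3 was the highest INSR library, and control replicate 1 lay within the GDF11 range. The difference was -0.52 ± 0.24 (SE, limma adjusted p = 0.143), with a 95% interval of -1.06 to 0.01, and it was -0.28 without control replicate 3.

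Of the adaptors, IRS1 rose. IRS1 (ENSG00000169047.5, chromosome 2, 226731312 to 226799820) couples both receptors to PI3 kinase. It had 2780.9, 2888.7 and 3006.2 normalised reads in GDF11 replicates 1, 2 and 3, against 1284.5, 1615.6 and 2094.2 in control replicates 1, 2 and 3. All GDF11 libraries were above all controls, and control replicate 3 was the nearest. The ratio of means was 1.74 and the log2 difference 0.79 ± 0.18 (SE, limma adjusted p = 0.016). The call ended without control replicate 1 (0.63) and without GDF11 replicate 1 (0.82), 2 (0.79) or 3 (0.76). Adding each library's RNA integrity number to the fit gave 0.47, not called (limma adjusted p = 0.273, from 0.000812 to 0.273 over the alternatives), and that number is itself lower in the GDF11 libraries.

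IRS2, the other main adaptor of hepatocytes and a FOXO target, was low and not called. IRS2 (ENSG00000185950.9, chromosome 13, 109752695 to 109786583) had 28.8, 31.1 and 24.2 normalised reads in GDF11 replicates 1, 2 and 3, against 28.7, 21.7 and 15.4 in control replicates 1, 2 and 3. The groups overlapped through control replicate 1. The difference was 0.13 ± 0.11 (SE, limma adjusted p = 0.433), with a 95% interval of -0.12 to 0.38. At an expression value of 7 only 0.472 of a real log2 change is preserved, so this interval understates changes of IRS2, which lies below that value. On a log2 scale of normalised reads plus 1 the difference was 0.38.

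Control replicate 3 did not take the same place for all of these genes. Its place was measured between the mean of the other controls (set to 0) and the mean of the GDF11 libraries (set to 1). It lay at 0.11 for IGFBP7, -0.29 for IGFBP4 and -0.24 for IGFBP2. It lay at 0.53 for IRS1 and at 1.08 for IGF1R, that is, among the GDF11 libraries. Without control replicate 3 the differences were 2.50 for IGFBP7, 1.58 for IGFBP4, 0.72 for IGFBP2 and 0.96 for IRS1, and each was called higher.

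**Figure D2:**
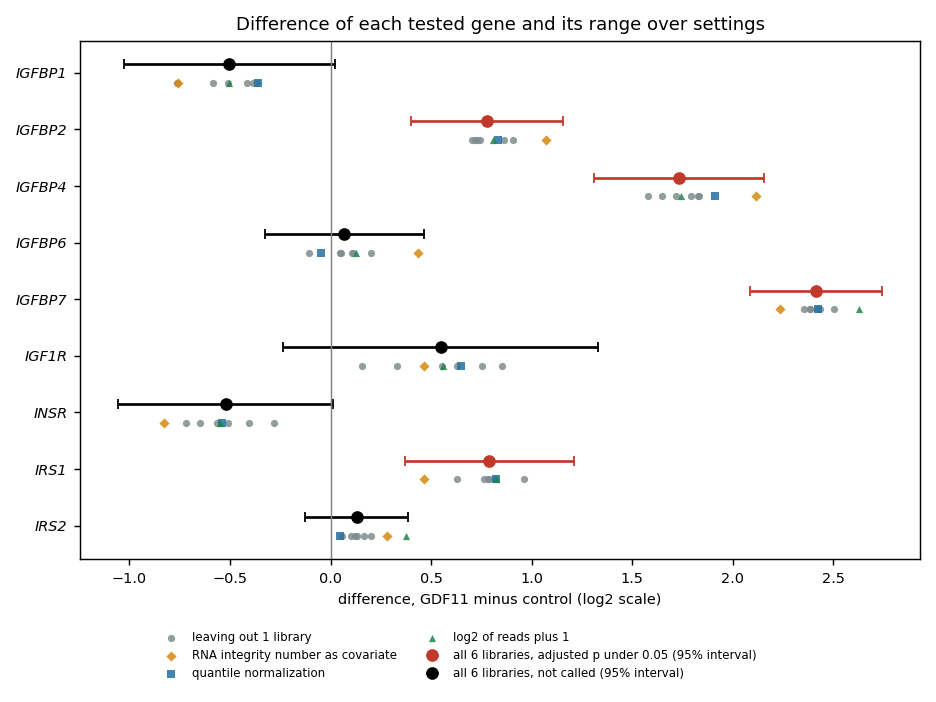
Difference between GDF11 and control libraries (log2 scale, x axis) for the 9 tested genes, with limma's 95% interval from all 6 libraries and, below it, the difference under other settings. IGFBP7 and IGFBP4 stay far to the right of 0 in each of these settings, IGFBP2 and IRS1 lie nearer to it, and IGFBP6 lies on both sides.

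The genes whose profiles over the 6 libraries were most like those of IGFBP4 and IGFBP7 were found by the root-mean-square difference of mean-centred values. For IGFBP4 these were TRPV4 (0.0548) and CLIP2 (0.0647). For IGFBP7 they were RND1 (0.0564) and PDGFA (0.0615). All 4 rose with GDF11, by 1.79 for TRPV4, 1.74 for CLIP2, 2.34 for RND1 and 2.31 for PDGFA. With 2 groups that lie far apart, the likeness rests mainly on the size of the treatment difference.

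Among 22 other genes of the IGF axis (including ligands, receptors, binding proteins, proteases and mRNA-binding proteins), FURIN and HTRA1 rose and none fell. IGF1 and PAPPA were called higher as well, which made 4 of 15 tested genes. These 2 had passed the filter on low values only through their GDF11 libraries, so that they could be called in 1 direction only. Leaving them aside, 2 of 13 genes were called (15.4%, against 22.4% of all tested genes). The median difference over the 15 genes was 0.36, over the 13 genes 0.17, likewise 0.17 under a stricter filter, and -0.088 with RNA integrity in the fit. FURIN encodes a protease that cleaves the precursors of the IGF1 and insulin receptors. Its values were 16.43, 16.24 and 16.18 in GDF11 replicates 1, 2 and 3, against 13.41, 13.03 and 13.21 in control replicates 1, 2 and 3. The groups were far apart, at a ratio of 8.43 on normalised reads and a log2 difference of 3.07 ± 0.17 (SE, limma adjusted p = 1.05e-05).

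PAPPA, the protease gene for IGFBP4, was detected at a low level. It had 60.0, 13.8 and 26.4 normalised reads in GDF11 replicates 1, 2 and 3, against 3.7, 2.0 and 2.4 in control replicates 1, 2 and 3. The controls were near 0 and the GDF11 libraries unequal among themselves. IGF1 had 56.7, 35.9 and 94.3 normalised reads in GDF11 replicates 1, 2 and 3, against 2.2, 2.4 and 4.5 in control replicates 1, 2 and 3. Every GDF11 library was above every control for both genes, at a low level throughout. These values are given as a description, with no test, because of how the 2 genes entered the fit.

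HTRA1, a secreted protease that can cleave IGF binding proteins, rose by 0.48 ± 0.12 (SE, limma adjusted p = 0.0187). It had 70.6, 68.0 and 55.3 normalised reads in GDF11 replicates 1, 2 and 3, against 25.0, 35.9 and 30.9 in control replicates 1, 2 and 3, a ratio of 2.11. Its call ended without control replicate 1 (0.43), GDF11 replicate 1 (0.44) or GDF11 replicate 2 (0.46), and in the fit that included RNA integrity (0.58, limma adjusted p = 0.0873, the highest over its alternatives). IGF2, the fetal-type ligand that HepG2 expresses, stood at 16.14, 16.02 and 16.22 in GDF11 replicates 1, 2 and 3, against 16.38, 16.97 and 16.30 in control replicates 1, 2 and 3. The GDF11 libraries all lay below the controls, but the gap to the nearest control was small. IGF2 was not called (-0.42 ± 0.21, SE, limma adjusted p = 0.182), its sign turned to 0.035 with quantile normalization, and it was called lower without control replicate 3 (-0.55). Reads of the overlapping INS-IGF2 transcript cannot be told apart from it with certainty.

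IGF2R, whose product clears IGF2 by taking it to lysosomes, stood at 14.16, 14.19 and 14.12 in GDF11 replicates 1, 2 and 3, against 13.57, 13.56 and 14.14 in control replicates 1, 2 and 3. Control replicate 3 alone lay at the GDF11 level. IGF2R was not called with it (0.40 ± 0.19, SE, limma adjusted p = 0.16) and was called higher without it (0.59). STC2, a secreted inhibitor of pappalysins, was not called (0.17 ± 0.18, SE, limma adjusted p = 0.526), and its sign turned to -0.15 in the fit that included RNA integrity. Without control replicate 3 the numbers of called IGF axis genes were 7 higher and 2 lower. The 7 include IGF1 and PAPPA, which passed the filter only through their GDF11 libraries. Only 1 IGF axis gene was called higher with the RNA integrity covariate, and likewise under a stricter filter, which drops the low IGF1, PAPPA and HTRA1.

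The list of 65 genes between the insulin receptor and AKT, mTOR and FOXO moved in both directions, with 10 of 61 tested genes higher, 7 lower and 44 not called. That is 27.9% called, against 22.4% of all tested genes, and the median difference was 0.06. The genes with the lowest p on this list were GRB10, SOCS2, DEPTOR and SOCS3. GRB10, an adaptor that binds and restrains the insulin and IGF1 receptors, stood at 11.96, 11.95 and 11.87 in GDF11 replicates 1, 2 and 3, against 9.43, 9.64 and 9.98 in control replicates 1, 2 and 3. The groups were far apart, with a log2 difference of 2.24 ± 0.17 (SE, limma adjusted p = 5.26e-05) and a ratio of 5.11 on normalised reads.

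SOCS2 and SOCS3, suppressors of cytokine signalling of which SOCS3 can also bind the insulin receptor and IRS proteins, rose by 1.78 ± 0.14 and 0.85 ± 0.14 (SE, limma adjusted p = 6.22e-05 and 0.00285). SOCS2 had 188.7, 196.9 and 177.7 normalised reads in GDF11 replicates 1, 2 and 3, against 13.3, 7.5 and 23.2 in control replicates 1, 2 and 3. SOCS1, of the same family, was among the genes that fell. The others that rose were GAB2, SHC1, SH2B3, INPPL1, GSK3B, FOXO1 and CBL, and those that fell included PIK3R2, PDPK1, AKT2, MLST8 and DEPTOR. DEPTOR, an inhibitor of mTOR, had 19.2, 15.6 and 20.1 normalised reads in GDF11 replicates 1, 2 and 3, against 51.8, 68.8 and 72.1 in control replicates 1, 2 and 3. It fell by 0.72 ± 0.11 (SE, limma adjusted p = 0.00251). On the log2 scale of reads plus 1, which does not compress low values in this way, the differences were 3.72 for SOCS2, 1.48 for SOCS3 and -1.75 for DEPTOR. PIK3R1, the main regulatory subunit of PI3 kinase, was not called (-0.20 ± 0.19, SE, limma adjusted p = 0.49).

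FOXO1, the FOXO factor most studied in liver insulin action, had 1449.3, 1470.4 and 1667.5 normalised reads in GDF11 replicates 1, 2 and 3, against 749.0, 669.8 and 1004.6 in control replicates 1, 2 and 3. It rose by 0.87 ± 0.17 (SE, limma adjusted p = 0.00803) and was not called in the fit that included RNA integrity (0.46, limma adjusted p = 0.162, the highest over its alternatives). The counts of this list shifted with single libraries. Without control replicate 3 they were 19 higher and 17 lower, and without GDF11 replicate 1 they were 5 higher and 3 lower. Leaving out GDF11 replicate 2 gave 6 higher and 4 lower, and so did leaving out GDF11 replicate 3. Leaving out control replicate 1 gave 5 higher and 6 lower.

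**Figure D3:**
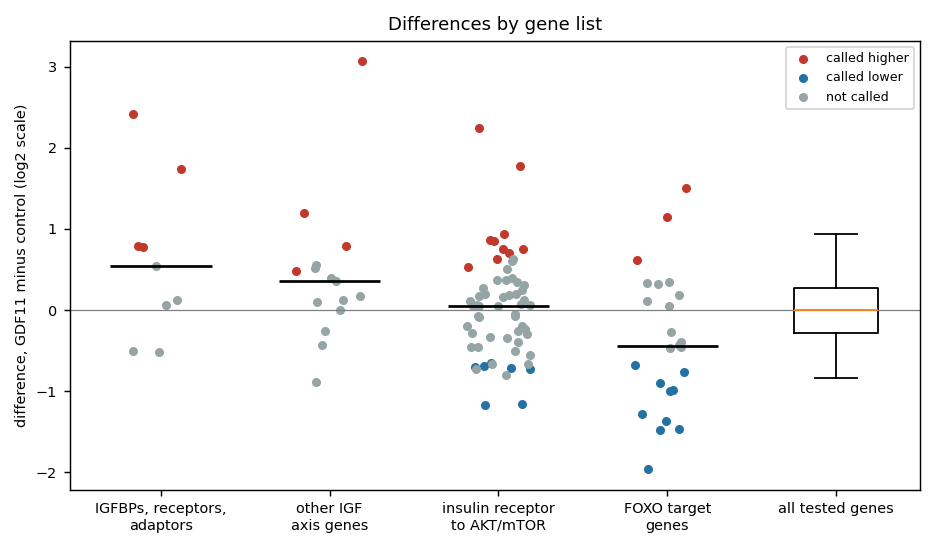
Difference between GDF11 and control libraries (log2 scale, y axis) for each tested gene of 4 lists, coloured by its call, with the list's median as a black line. The box at the right gives the quartiles and median of all 18723 tested genes, with whiskers at percentiles 5 and 95. The FOXO target list has most of its called genes below 0 (10 lower, 3 higher), and the binding protein, receptor and adaptor genes have 4 called, all above 0. Among the other IGF axis genes, IGF1 and PAPPA are coloured as called although both passed the filter only through their GDF11 libraries.

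Genes known as FOXO-activated or insulin-repressed in liver, the class to which IGFBP1 and IRS2 belong, included G6PC1, KLF15 and MTTP among those that fell. Of 24 tested genes of this list, 3 rose, 10 fell and 11 were not called, with a median difference of -0.44. That is 54.2% called, against 22.4% of all tested genes (11.7% higher and 10.8% lower). Like the other lists, this one was chosen with earlier results of these data known, so its share is a description and not a test. G6PC1, the glucose-6-phosphatase of glucose release, stood at 8.87, 8.87 and 8.82 in GDF11 replicates 1, 2 and 3, against 10.06, 11.42 and 10.96 in control replicates 1, 2 and 3. The GDF11 libraries were nearly equal and all below the scattered controls, with a difference of -1.96 ± 0.30 (SE, limma adjusted p = 0.00214). In the fit that included RNA integrity it was -1.81 and not called (limma adjusted p = 0.0534, the highest over its alternatives).

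PCK1, the other rate-setting gene of gluconeogenesis, was low, with 10.8, 4.2 and 6.3 normalised reads in GDF11 replicates 1, 2 and 3, against 12.4, 47.9 and 17.1 in control replicates 1, 2 and 3. It was not called (-0.46 ± 0.17, SE, limma adjusted p = 0.0888), although its groups did not overlap. KLF15, a glucocorticoid- and fasting-induced factor, had 21.0, 25.1 and 25.8 normalised reads in GDF11 replicates 1, 2 and 3, against 139.2, 172.7 and 216.3 in control replicates 1, 2 and 3. It fell by 1.47 ± 0.14 (SE, limma adjusted p = 0.000203), and the difference was -2.81 on the log2 scale of reads plus 1. MTTP, the lipid transfer protein of lipoprotein assembly, fell by 1.37 ± 0.18 (SE, limma adjusted p = 0.000903). PIK3IP1, an inhibitor of PI3 kinase, rose by 1.51 ± 0.17 (SE, limma adjusted p = 0.000413), and TRIB1, a pseudokinase, by 1.15 ± 0.14 (SE, limma adjusted p = 0.000627). SESN3 also rose, and PPARGC1A, BCL6, APOC3, DEPP1, BNIP3, CEBPB and SELENOP also fell. The number lower was 6 when GDF11 replicate 1 was left out, and also 6 when RNA integrity was in the fit. Several of these genes, such as MTTP, APOC3 and SELENOP, are also typical hepatocyte products, and hepatocyte markers fell in the same libraries (6 of 10), a part in this result that was not tested.

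**Figure D4:**
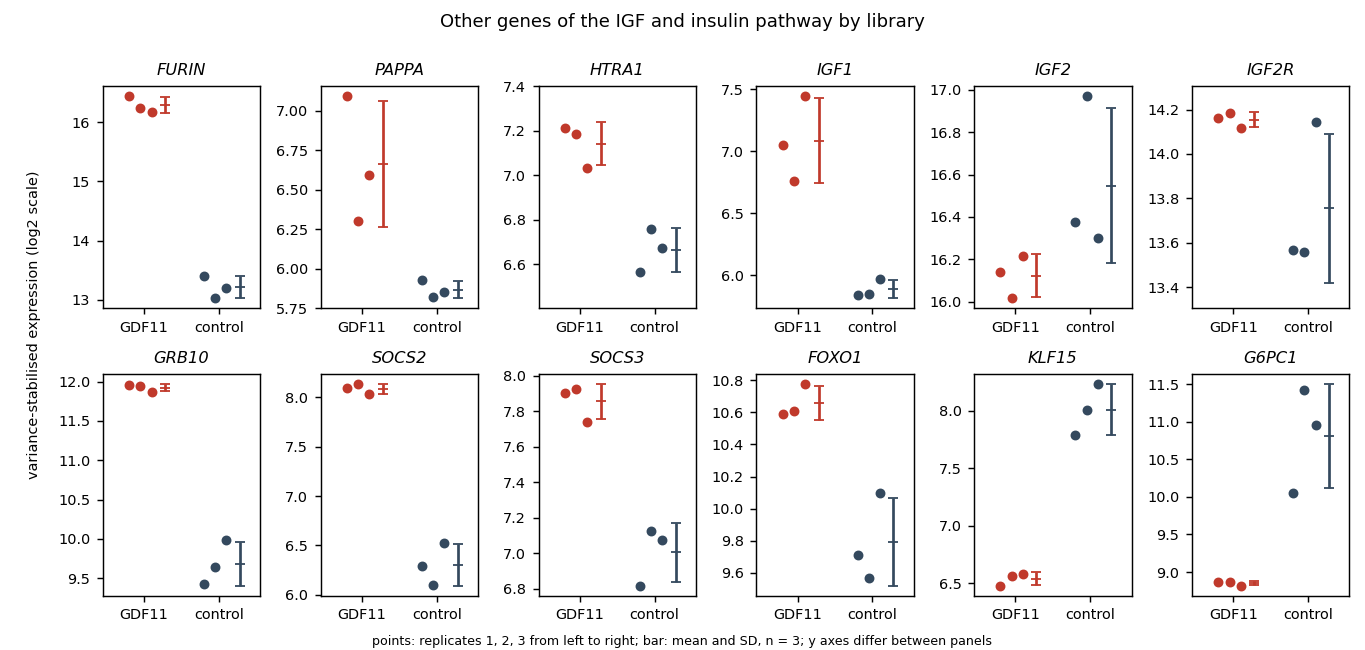
Variance-stabilised expression (log2 scale, y axis) of 12 other genes of the IGF and insulin pathway in each library, GDF11 left and control right in each panel, with the mean and SD of 3 libraries beside the points. FURIN, GRB10 and SOCS2 are far higher in the GDF11 libraries, KLF15 and G6PC1 lower, and IGF2R has control replicate 3 at the GDF11 level.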

How the data were processed

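Total RNA of HepG2 cells was sequenced as single reads of 75 bases from directional libraries, per the labels' protocols. The authors deposited log2 values for 60240 Ensembl genes, variance-stabilised and named so. The submitters' processing notes list GRCh38, Salmon 1.2.1, Trimmomatic and DESeq2, whereas STAR 2.6 and hg19 appear in the labels' protocols. The sources used here do not say which route gave the values or whether strand was used in counting, so sense and antisense genes may share reads.

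The curve was inverted to normalised reads, and of the values of up to 20 reads, 71.0% to 74.2% per library were whole within 0.01. Since whole reads could not be recovered, count tests were left aside. Depth was estimated from the values. At expression values of 8, 10 and 12 the scale keeps 0.696, 0.914 and 0.978 of a true log2 change.

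Symbols matched 58349 IDs (96.9%). Genes with a mean at least 0.5 above the lowest value (18723) entered a fit by limma 3.58.1 under R 4.3.3 (mean trend, 2-sided, no covariate, Benjamini-Hochberg over all tested genes, threshold 0.05), and the test was checked on simulated data. The replicates are called biological in the labels. Alternatives covered filters, quantile normalization, a log2 scale of reads plus 1, the RNA integrity number, a replicate block and leaving out each library. Named genes were all 10 members, up to 4 of each other list by lowest p, 8 fixed genes, and the 2 nearest profiles of each member called with a difference of at least 1. IGFBP5 and other list members named without values were added after their values were seen. SOD2 was not matched. INSRR and RICTOR are in 2 lists. Members and lists were chosen with earlier results of these data known. Promoter windows are from RefSeq, and positions from its GRCh38.p14 gene table, by symbol. Python 3.11.15 was used for the rest.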

Additional observations from a re-analysis of the deposited data

How the results depend on the processing

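Over 12 alternatives, IGFBP4 and IGFBP7 kept their direction and call in every one. IGFBP2 and IRS1 kept their direction, and lost their call in 3 and 5 of them. Leaving out 1 library gave 2 to 4 genes higher and 0 to 1 lower among the 10, 3 to 7 and 0 to 2 in the IGF axis, 5 to 19 and 3 to 17 in insulin signalling, 3 to 4 and 6 to 9 among FOXO targets, and 1397 to 3647 and 955 to 3993 over all tested genes. The highest over all genes were without control replicate 3. Including RNA integrity, which differs between the groups, 1 IGF axis gene was higher, 3 insulin signalling genes and 6 FOXO targets were lower, and 1149 genes were higher and 721 lower in all. The stricter filter left 1 IGF axis gene higher, since it drops low genes. Excluding IGF1 and PAPPA, a choice made after seeing the data, left 2 higher. The other IGF axis counts of this paragraph include these 2 genes wherever they were called. Whether replicate numbers pair the cultures could not be settled. Over genes, deviations of same-numbered libraries correlated at -0.0883, 0.375 and 0.478 for replicates 1, 2 and 3. GDF11 replicates 2 and 3 correlated best with the control of their own number, and GDF11 replicate 1 with control replicate 2 (0.147). With a replicate block 4 of the 10 genes were higher and 1 (IGFBP1) was lower. The numbers higher and lower were then 5 and 1 in the IGF axis and 14 and 13 in insulin signalling. They were 3 and 11 among FOXO targets, and 3147 and 3306 over all tested genes. Signs turned for IGFBP6 (-0.046 with quantile normalization, -0.11 without control replicate 3 and from there up to 0.20 when another library was left out), IGF2 (0.035 with quantile normalization) and STC2 (-0.15 with the RNA integrity covariate), none of them called. The cause of these shifts was not tested. Depth limits IGFBP3, PAPPA, IGF1 and IRS2, which have few reads.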

Other observations

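Differences between pairs of these genes within a library were computed for 3 pairs chosen after their values were seen. Their p-values are therefore a description and not a test. The IGF1R minus INSR difference was 2.21, 2.25 and 1.65 on the log2 scale in GDF11 replicates 1, 2 and 3, against 0.59, 1.22 and 1.10 in control replicates 1, 2 and 3. Although each receptor gene overlapped between the groups, their within-library difference did not. Among all tested single genes 40.5% did not overlap, and no such share was computed for pairs. The IGF1R minus INSR difference shifted by 1.07 with GDF11, and by 0.88 to 1.26 when any 1 library was left out. The exact permutation test gave p = 0.1 (two-sided, n = 3 each, 0.1 after Benjamini-Hochberg adjustment over 3 pairs), the smallest that 3 against 3 allows, so the shift could not pass a threshold of 0.05.

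The IGFBP4 minus IGFBP1 difference was 0.94, 0.90 and 0.38 in GDF11 replicates 1, 2 and 3, against -0.79, -1.62 and -2.08 in control replicates 1, 2 and 3. It shifted by 2.24 (exact permutation p = 0.1, two-sided, n = 3 each, again the smallest possible). Most of this shift is the rise of IGFBP4 itself (1.73), whose groups did not overlap. Since values are not divided by gene length, only the shift between groups can be read. The IRS1 minus IRS2 difference was 4.85, 4.86 and 5.05 in GDF11 replicates, against 3.79, 4.24 and 4.75 in controls, a shift of 0.66 (exact permutation p = 0.1, two-sided, n = 3 each). This last shift and its p-value rest on the compressed low end of the scale for IRS2. On the log2 scale of reads plus 1 the shift was 0.45, and the groups overlapped, with control replicate 3 above the GDF11 libraries. IRS1 alone rose by 0.79 without overlap.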
